A study of Macaca mulatta with 30 samples.

Results

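The thymic epithelial genes PAX1, AIRE, CCL25 and TBATA were followed over 5 rhesus macaque RNAs that were each hybridized at 3 centers. The members were all probesets whose annotation gives 1 of these symbols and no other. They numbered 8 of the 24969 single-symbol probesets of the GeneChip, and 4 of 14133 genes. PAX1 had 2 probesets, AIRE 1, CCL25 4 and TBATA 1. The RNAs came from thymus, testis, pancreas, an immortalized fibroblast cell line and cerebral cortex, and the sources used here name no treatment. The study's methods place the origin of the thymus, testis and pancreas RNA at Oregon, of the fibroblast RNA at Nebraska and of the cortex RNA at Yerkes. A pair of aliquots of each RNA was labeled and hybridized separately at Oregon, Nebraska and Yerkes, giving 30 arrays, 6 for each tissue and 10 for each center. Each tissue was represented by 1 RNA, so p-values describe labeling and hybridization and not the spread between animals, whose number, sex and age are not given in the sources used here. Values are log2 signals, in which 1 unit is a doubling.

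Thymic epithelial cells form the stroma in which T cell precursors mature. Epithelium of the cortex attracts precursors and selects thymocytes that can see self molecules, and epithelium of the medulla displays proteins of other organs so that self-reactive cells are removed. PAX1 is a paired box transcription factor of the pharyngeal pouches and the thymic rudiment. AIRE, the autoimmune regulator, drives the display of tissue-restricted proteins in medullary epithelium, and its loss causes an autoimmune polyendocrine syndrome in humans. CCL25 is a chemokine that attracts thymocyte precursors through its receptor CCR9 and is also made by the small intestine. TBATA, known as Spatial in mouse, is a protein of thymic stroma, and in mouse it is also made by testicular germ cells.

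The 4 genes had very different signals in thymus, and for PAX1 and CCL25 the answer depended on the probeset. TBATA stood 4.45 (SE 0.07) above the highest other tissue, and 1 probeset each of CCL25 and PAX1 stood 2.58 (SE 0.09) and 2.56 (SE 0.11) above. AIRE was 0.19 (SE 0.06) above. The other PAX1 probeset was highest in pancreas, and the other 3 CCL25 probesets were highest in fibroblast. A probeset was called higher in thymus when limma put thymus above each of the other 4 tissues with an adjusted p under 0.05, the largest of the 4 p-values being adjusted over all probesets. By this rule 4 of the 8 probesets were higher in thymus, where 10.9% of all 52865 probesets were. The count was 3, without AIRE, when all arrays were quantile normalized together, with aliquot pairs as a random block, at each center alone and without a center term, where the share of all probesets was 5.7%. The remaining 4 were called higher in 1 other tissue than in all the rest, and 46.7% of all probesets were called in this way for a tissue other than thymus, so that a count of 4 of 8 lies near the background. By tissue, 3 of the 8 were called for fibroblast (8.99% of all probesets), 1 for pancreas (21.9%) and none for testis (5.99%) or cerebral cortex (9.79%). The median of the difference of thymus from the highest other tissue was -0.45 over all probesets and -0.52 over single-symbol ones. TBATA ranked 14 in this difference, CCL25 299 and PAX1 303 among 52865 probesets, and AIRE ranked 6879. Taken a pair of tissues at a time, thymus was higher than testis for 7 of the 8 probesets (background 30.4%) and lower for none (24.4%). It was higher than pancreas for 7 (32.1%) and lower for 1 (50.2%), higher than fibroblast for 4 (30%) and lower for 3 (28.2%), and higher than cerebral cortex for 7 (32.5%) and lower for 1 (32.5%). TBATA had already stood out in an earlier look at these arrays, so its rank is a description. In whole-tissue RNA, fewer cells of a type and less RNA per cell cannot be told apart.

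**Figure D1:**
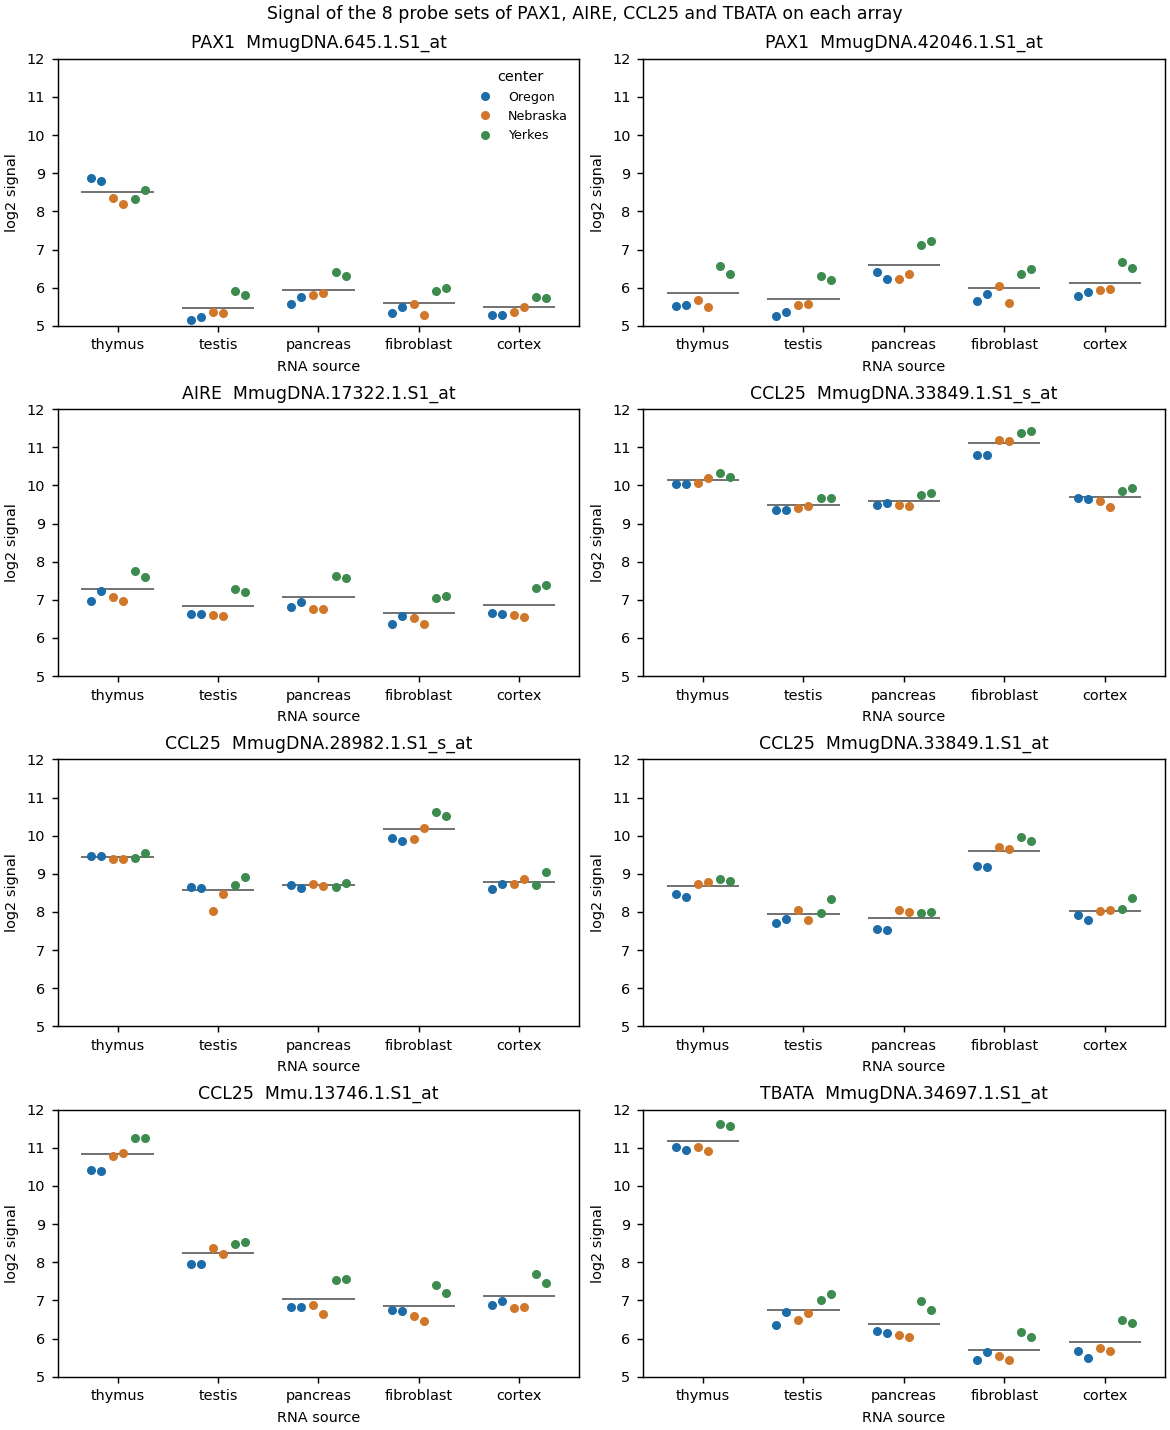
Log2 signal (y axis) of each of the 8 probesets on the 30 arrays by RNA source (x axis), with 1 point per aliquot, colored by center, and the mean of 6 arrays as a line. TBATA, the CCL25 probeset whose panel title starts with Mmu and a point and PAX1 probeset MmugDNA.645.1.S1_at have all thymus arrays above all other arrays, and 3 CCL25 probesets have their highest arrays in fibroblast.

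TBATA gave the widest separation. On the Oregon arrays its probeset MmugDNA.34697.1.S1_at gave 11.01 and 10.94 for thymus and 6.36 and 6.70 for testis, the next tissue. On the Nebraska arrays thymus gave 11.03 and 10.92 and testis 6.49 and 6.68. On the Yerkes arrays thymus gave 11.63 and 11.57 and testis 7.02 and 7.16. No array of another tissue came near the thymus arrays, and the Yerkes arrays were the highest in every tissue, as they were over all probesets, whose mean was 6.91 at Yerkes, 6.36 at Nebraska and 6.33 at Oregon.

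The mean of TBATA was 11.18 ± 0.32 (SD, n = 6) in thymus and 6.74 ± 0.30 in testis, a 21.8-fold difference (adjusted p = 5.75e-30, limma). Within centers thymus exceeded testis by 4.44 (Oregon), 4.39 (Nebraska) and 4.51 (Yerkes), and the interaction of tissue and center was not significant (adjusted p = 0.563, limma F). Below thymus the means descended through pancreas at 6.37 and cerebral cortex at 5.91 to fibroblast at 5.71, and each tissue differed from its neighbor in this order, with adjusted p between 7.84e-07 and 0.0125 (limma). Testis exceeded pancreas by 0.36 (SE 0.07). The thymus signals lay at the 98.9th to 99.3rd percentile of their arrays and those of testis at the 59.0th to 66.3rd, so testis was within the middle of the array. Without detection calls it is not known whether the testis signal was above background, so the 21.8-fold is a ratio of signals only.

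PAX1 was represented by 2 probesets that gave opposite answers. For probeset MmugDNA.645.1.S1_at the Oregon arrays gave 8.87 and 8.78 for thymus and 5.57 and 5.75 for pancreas, the next tissue. The Nebraska arrays gave 8.35 and 8.20 for thymus and 5.80 and 5.86 for pancreas, and the Yerkes arrays 8.31 and 8.56 for thymus and 6.42 and 6.30 for pancreas. The 2 tissues did not overlap, and Oregon had both the highest thymus values and the lowest pancreas values.

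The mean of this probeset was 8.51 ± 0.27 (SD, n = 6) in thymus and 5.95 ± 0.33 in pancreas, a difference of 2.56 (SE 0.11, adjusted p = 1.39e-18, limma). The thymus signals were at the 84.35th to 92.5th percentile of their arrays and the pancreas signals at the 28.0th to 36.4th. Since no detection calls were used, it is not known whether the pancreas signal was above background, and no fold is given. Its other means were 5.60 in fibroblast, 5.49 in cerebral cortex and 5.47 in testis. Pancreas exceeded fibroblast by 0.35 (adjusted p = 0.00564, limma), while the steps below it, between fibroblast and cerebral cortex and between cerebral cortex and testis, did not pass the test (adjusted p = 0.440 and 0.872, limma). The excess of thymus over pancreas was 3.17 on the Oregon, 2.45 on the Nebraska and 2.08 on the Yerkes arrays. The interaction of tissue and center passed the test (adjusted p = 0.000369, limma F), as it did for 28.3% of all probesets. In each of the other tissues this probeset was highest on the Yerkes arrays, whereas in thymus the Oregon arrays, at a mean of 8.83, exceeded those of Yerkes at 8.44.

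The other PAX1 probeset, MmugDNA.42046.1.S1_at, did not single out thymus. The Oregon arrays gave 5.52 and 5.54 for thymus and 6.42 and 6.24 for pancreas. The Nebraska arrays gave 5.68 and 5.48 for thymus and 6.24 and 6.35 for pancreas, and the Yerkes arrays 6.56 and 6.36 for thymus and 7.11 and 7.23 for pancreas. Within each center thymus lay below pancreas.

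Thymus averaged 5.86 ± 0.47 (SD, n = 6) and pancreas 6.60 ± 0.45, a difference of -0.74 (SE 0.07), and pancreas exceeded the next tissue, cerebral cortex at 6.13, by 0.47 (adjusted p = 6.17e-06, limma). Thymus did not pass the test against fibroblast (-0.14, adjusted p = 0.101) or testis (0.15, adjusted p = 0.0855, limma). The thymus signals were at the 29.9th to 44.7th percentile of their arrays and the pancreas signals at the 50.8th to 64.8th. The call for pancreas was lost without a center term (adjusted p = 0.470) and on the Nebraska arrays alone (adjusted p = 0.2365, limma). Many probesets shared this direction, since 21.9% of all were called for pancreas over the rest, and the pancreas arrays had the highest array medians at each center, for example 6.18 to 6.19 at Oregon, where thymus had 5.98. The paper rated the pancreas data lower in quality, by scaling factors and standardized errors, and asked for caution with them. This bears on every comparison with pancreas given here. Over the 30 arrays, with each center's mean subtracted, the PAX1 probesets had a Pearson correlation of -0.187 with each other.

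AIRE was the member with the smallest excess in thymus. For its probeset MmugDNA.17322.1.S1_at the Oregon arrays gave 6.98 and 7.23 for thymus and 6.82 and 6.94 for pancreas. The Nebraska arrays gave 7.08 and 6.98 for thymus and 6.75 and 6.76 for pancreas, and the Yerkes arrays 7.77 and 7.60 for thymus and 7.61 and 7.58 for pancreas. At Yerkes 1 of the thymus aliquots lay between the pancreas aliquots, so the tissues overlapped there.

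The mean of AIRE was 7.27 ± 0.34 (SD, n = 6) in thymus and 7.08 ± 0.41 in pancreas, a 1.14-fold difference (adjusted p = 0.0190, limma). The thymus signals were at the 71.2nd to 76.3rd percentile of their arrays and the pancreas signals at the 68.0th to 75.8th, so the ranges overlapped. The fibroblast signals, the lowest, were at the 61.1st to 66.5th. Against the other tissues the difference was larger, with 0.45 over testis, 0.42 over cerebral cortex and 0.61 over fibroblast (SE 0.06 each), and there thymus and the other tissue did not overlap within any center. Cerebral cortex at 6.85 and testis at 6.83 did not pass the test against each other (adjusted p = 0.674, limma). When all 30 arrays were quantile normalized as a single set, the excess of thymus over the highest other tissue was 0.08 and the call was lost (adjusted p = 1, limma). It was lost too with the pair of aliquots as a random block (adjusted p = 0.122) and at each center alone, where the difference was 0.22 (Oregon), 0.27 (Nebraska) and 0.09 (Yerkes). Leaving out 1 array lost it in 5 of 30 fits, with differences of 0.16 to 0.18. Without the pancreas arrays the call was kept, and thymus stood 0.42 above the highest other tissue (adjusted p = 2.03e-06, limma). That tissue was cerebral cortex, so this repeats the 0.42 given above and adds no separate evidence.

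CCL25, like PAX1, gave different orders of tissues with different probesets. Only 1 of the 4 has a transcript sequence listed in the annotation, and it is called the transcript probeset here. On the Oregon arrays it gave 10.43 and 10.39 for thymus and 7.96 and 7.97 for testis, the next tissue. On the Nebraska arrays thymus gave 10.79 and 10.86 and testis 8.37 and 8.22, and on the Yerkes arrays thymus gave 11.26 and 11.25 and testis 8.47 and 8.52. Every thymus array exceeded every testis array, and both tissues were lowest at Oregon and highest at Yerkes.

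The mean of this probeset was 10.83 ± 0.38 (SD, n = 6) in thymus and 8.25 ± 0.24 in testis, a 5.97-fold difference (adjusted p = 1.84e-21, limma). Thymus exceeded cerebral cortex by 3.72, pancreas by 3.78 and fibroblast by 3.97 (SE 0.09 each). Testis itself stood 1.14 (SE 0.09) above cerebral cortex (adjusted p = 4.92e-13, limma). Cerebral cortex at 7.11 and pancreas at 7.05 did not pass the test against each other (adjusted p = 0.563), and pancreas exceeded fibroblast at 6.85 by 0.19 (adjusted p = 0.0466, limma). Thymus signals were at the 98.3rd to 98.9th percentile and fibroblast signals at the 63.4th to 70.0th. Within centers the excess over testis was 2.44 (Oregon), 2.53 (Nebraska) and 2.76 (Yerkes), and the interaction of tissue and center passed the test (adjusted p = 0.00408, limma F).

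The other 3 CCL25 probesets were highest in fibroblast, with thymus next in log2 signal. Their names carry the prefix MmugDNA, and 2 of them end in the suffix that the manufacturer gives to probesets whose probes match more than 1 transcript. For MmugDNA.33849.1.S1_s_at the Oregon arrays gave 10.03 on both aliquots of thymus and 10.79 on both of fibroblast. The Nebraska arrays gave 10.06 and 10.19 for thymus and 11.19 and 11.17 for fibroblast, and the Yerkes arrays 10.32 and 10.23 for thymus and 11.36 and 11.44 for fibroblast. In log2 signal thymus was below fibroblast on all arrays and above the 3 other tissues within each center. By percentile within the array, thymus was at the 97.2nd to 97.84th and pancreas at the 97.85th to 98.0th. The place of thymus above pancreas thus depended on the scale for this probeset.

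For MmugDNA.33849.1.S1_s_at thymus averaged 10.14 ± 0.12 (SD, n = 6) and fibroblast 11.12 ± 0.28, a difference of -0.98 (SE 0.07). Fibroblast was called higher than every other tissue (adjusted p = 6.11e-14, limma). For MmugDNA.33849.1.S1_at thymus averaged 8.67 ± 0.20 and fibroblast 9.60 ± 0.32, a difference of -0.93 (SE 0.07). For MmugDNA.28982.1.S1_s_at thymus averaged 9.45 ± 0.06 and fibroblast 10.17 ± 0.33, a difference of -0.73 (SE 0.10), with center values of -0.43 (Oregon), -0.66 (Nebraska) and -1.09 (Yerkes). In the order of these 3 probesets, thymus exceeded cerebral cortex by 0.45, 0.64 and 0.67.

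Apart from fibroblast and thymus, the tissues lay close together on these 3 probesets, at 9.48 to 9.69, 7.85 to 8.04 and 8.57 to 8.78 in the same order, and no step between neighbors in the order passed the test (adjusted p between 0.130 and 0.456, limma). Of the pairs further apart, testis differed from cerebral cortex by -0.21 for MmugDNA.33849.1.S1_s_at (adjusted p = 0.00562) and pancreas from cerebral cortex by -0.18 for MmugDNA.33849.1.S1_at (adjusted p = 0.0223, limma). On no array was a signal of these 3 probesets below the 79.45th percentile. Over the 30 arrays, with center means subtracted, the 3 probesets correlated with each other at a Pearson r of 0.956 to 0.978, and with the transcript probeset at -0.0778 to 0.0482. The points of these correlations share 5 RNAs. A single value for CCL25 therefore depended on the probeset chosen. MmugDNA.33849.1.S1_s_at ranked fibroblast first and the transcript probeset ranked thymus first.

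Control probesets for the 3' and 5' ends of transcripts differed between tissues, most in fibroblast and pancreas. The 3' control probeset of GAPDH exceeded the 5' one by 0.47 ± 0.36 (SD, n = 6) in thymus, 1.81 ± 0.58 in fibroblast and 1.58 ± 0.49 in pancreas, and that of ACTB by 0.24 ± 0.44 in thymus, 2.00 ± 0.55 in fibroblast and 1.81 ± 0.47 in pancreas. Testis and cerebral cortex had 0.69 and 0.82 for GAPDH and 0.74 and 0.50 for ACTB. The 3 CCL25 probesets highest in fibroblast were lower in pancreas than in thymus, by 0.55 to 0.82 in log2 signal. PAX1 probeset MmugDNA.42046.1.S1_at, highest in pancreas, did not pass the test between thymus and fibroblast. The paper found the 3'/5' ratios of housekeeping genes acceptable for cortex, fibroblast, testis and thymus. The part of these 3' to 5' differences in the fibroblast signals of CCL25 and the pancreas signals of PAX1 was not tested. Whether the annotation names the right gene for the 3 fibroblast-high CCL25 probesets was not tested either, since probe sequences were not used here, and their signals are those of probesets annotated as CCL25. Aliquots of 1 RNA at 1 center differed by a median of 0.05 to 0.12 over the 8 probesets (15 pairs each). The largest difference was 0.44, in testis at Nebraska for MmugDNA.28982.1.S1_s_at and in fibroblast at Nebraska for MmugDNA.42046.1.S1_at.

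**Figure D2:**
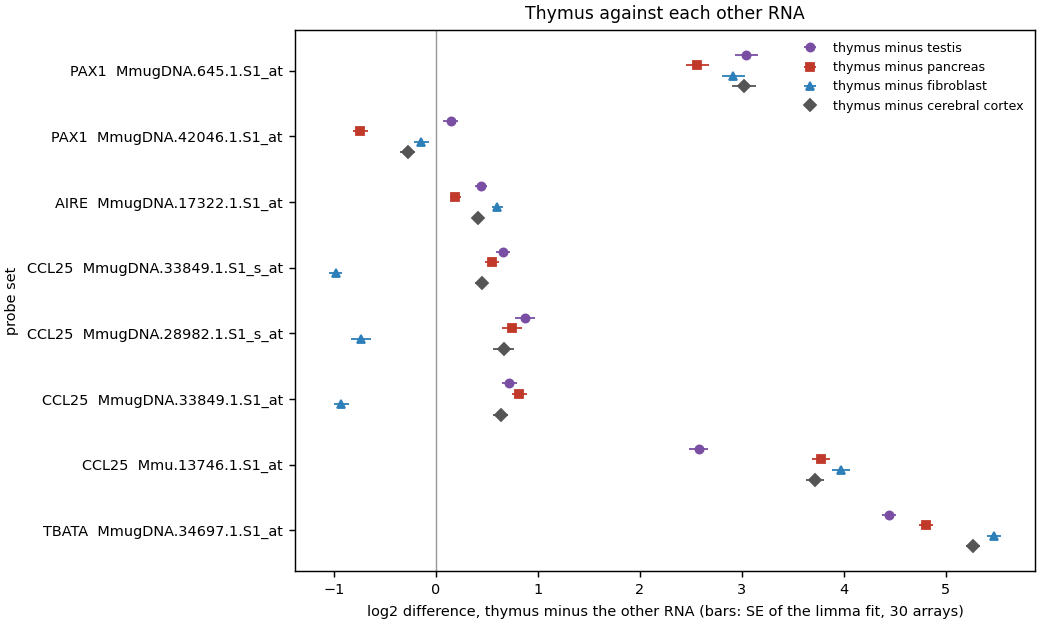
Log2 difference of thymus from each other RNA (x axis) for the 8 probesets (y axis), with the SE of the limma fit over 30 arrays as bars. The fibroblast points of 3 CCL25 probesets lie at -0.98, -0.73 and -0.93, while that of the transcript probeset lies at 3.97.

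The centers gave the same direction for each member. All 8 differences of thymus from the highest other tissue had 1 sign at the 3 centers, and the range between centers was widest for PAX1 probeset MmugDNA.645.1.S1_at, at 2.08 to 3.17, and narrowest for the other PAX1 probeset, at -0.80 to -0.71. The interaction of tissue and center passed the test for 4 of 8 probesets, where 28.3% of all probesets did. These were MmugDNA.645.1.S1_at of PAX1 and, of CCL25, the transcript probeset, MmugDNA.33849.1.S1_s_at (adjusted p = 0.0187) and MmugDNA.28982.1.S1_s_at (adjusted p = 0.0278, limma F).

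**Figure D3:**
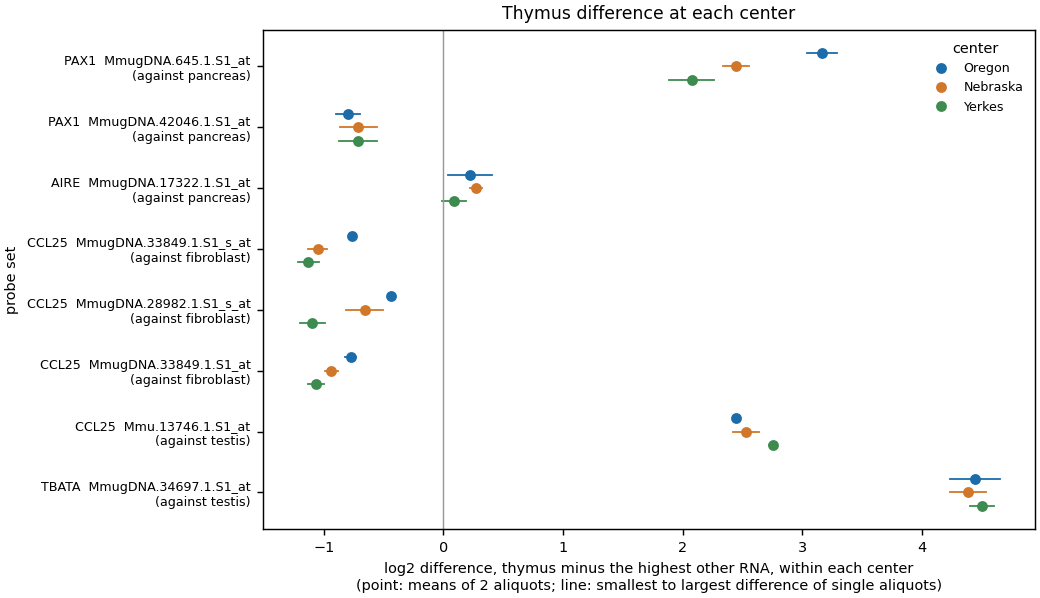
Log2 difference of thymus from the highest other RNA (x axis) at each center for the 8 probesets (y axis), as the difference of the means of 2 aliquots, with lines from the smallest to the largest difference of single aliquots. The points of TBATA lie between 4.39 and 4.51 and those of PAX1 probeset MmugDNA.645.1.S1_at between 2.08 and 3.17.

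Other genes of thymic epithelium were divided too. Of 36 genes in a list of epithelial markers and signals, 27 had a single-symbol probeset, and each was represented by its brightest one. Of these 6 were higher in thymus than in every other tissue, where 10.9% of all probesets were, and 5 had no call. Another tissue was called for 16, as it was for 46.7% of all probesets. By tissue, 9 were called for pancreas (21.9% of all probesets), 3 for cerebral cortex (9.79%), 2 for testis (5.99%) and 2 for fibroblast (8.99%). The median difference from the highest other tissue was -0.53, close to the -0.52 of all single-symbol probesets and the -0.45 of all probesets.

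The 6 genes were enzymes, chemokines and a transcription factor. PRSS16, the thymus-specific serine protease of cortical epithelium, was at 11.43 ± 0.31 (SD, n = 6) in thymus and 7.44 in testis, a difference of 3.99 (SE 0.09, adjusted p = 1.92e-26, limma). CCL19, a chemokine of medullary stroma, was at 9.85 in thymus and 6.38 in pancreas. CTSV, a cathepsin of cortical epithelium in humans, was 2.85 (SE 0.14) above testis. PSMB11, the thymoproteasome subunit, was at 7.92 in thymus and 6.37 in pancreas, a difference of 1.55 (SE 0.06). TP63, the p63 factor of stratified and thymic epithelium, was 1.46 above testis, and CCL17, a chemokine that attracts CCR4-bearing cells, 1.18 above pancreas.

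FOXN1, the master regulator of thymic epithelium, was at 6.90 in thymus and 7.19 in pancreas and differed by -0.30 (SE 0.08). Its other means were 6.92 in cerebral cortex, 6.63 in fibroblast and 6.51 in testis. Since no detection calls were used, it is not known whether any of these signals was above background. KRT8, a keratin of simple epithelia and cortical thymic epithelium, was at 7.16 in thymus and 8.30 in pancreas, and EPCAM, a surface protein of epithelia, at 4.93 in thymus and 9.92 in pancreas, the lowest difference of the list at -4.99. KRT5, KRT14 and PAX9 were not analysed here because no single-symbol probeset was listed for them. LY75, an endocytic receptor of thymic cortical epithelium and dendritic cells, had probesets that disagreed as those of CCL25 did. The one chosen gave 6.41 in thymus and 7.99 in testis. The other, MmuSTS.1447.1.S1_at, gave 10.26 in thymus and 6.39 in testis, a difference of 3.88 (SE 0.11). The list with LY75 counted by any probeset had 7 genes higher in thymus.

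**Figure D4:**
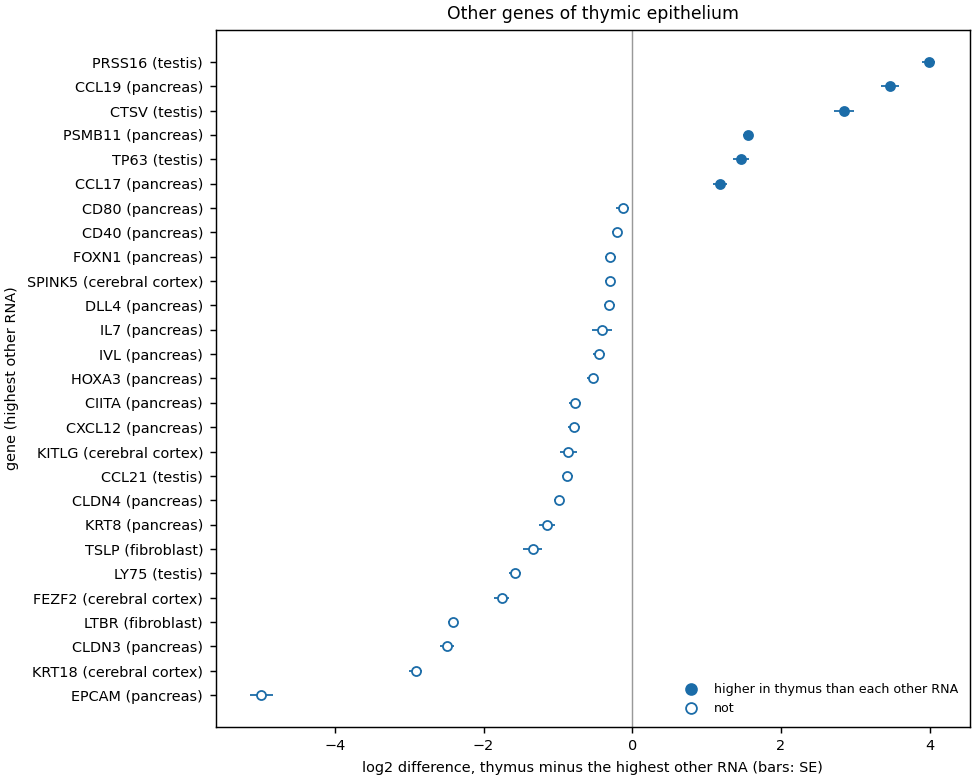
Log2 difference of thymus from the highest other RNA (x axis) for 27 other genes of thymic epithelium (y axis, highest other RNA in brackets), with the SE as bars. Filled points mark the 6 genes higher in thymus than in each other RNA, from 3.99 for PRSS16 to 1.18 for CCL17, and EPCAM lies lowest at -4.99.

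Among receptors of thymic chemokines and growth factors, 3 of 5 measured genes were higher in thymus, where 10.9% of all probesets were. CXCR4, the receptor of CXCL12, was at 11.43 in thymus and 7.71 in testis, a difference of 3.72 (SE 0.07). CCR7, the receptor of CCL19 and CCL21, was at 8.75 in thymus and 7.85 in pancreas, a difference of 0.90 (SE 0.10), and CCR4 differed by 0.59. ACKR4, a scavenging receptor that binds CCL25, was at 4.04 in thymus and 6.88 in fibroblast, a difference of -2.84 (SE 0.15) that ran in the direction of the 3 genomic CCL25 probesets. KIT was called for cerebral cortex. CCR9 itself was not analysed here because no single-symbol probeset was listed.

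Genes that work with AIRE or resemble it varied without a common direction. Of 14 measured proteins known to bind or assist AIRE, 5 were higher in thymus (10.9% of all probesets were), 3 were called for another tissue (46.7%) and 6 had no call, and the median difference was 0.02. The 5 became 3 when all arrays were quantile normalized together and 7 with any probeset of a gene counted. TOP2A, a topoisomerase of dividing cells, was at 11.49 in thymus and 9.69 in fibroblast, a difference of 1.79 (SE 0.12), and CDK9, a kinase of transcription elongation, was the lowest at -1.17. Of 5 measured relatives with SAND or PHD domains, SP110 alone was higher in thymus, at 8.84 against 7.63 in testis, and DEAF1 was lowest at -2.42. None of the 6 other measured PAX genes was higher in thymus, and 5 were called for pancreas, against 10.9% and 21.9% of all probesets. The pancreas arrays had the highest medians. Their differences ran between -0.52 for PAX3 and -2.32 for PAX6, with a median of -0.79.

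The thymus RNA carried the markers of thymocytes. Of 12 measured thymocyte genes, 11 were higher in thymus, where 10.9% of all probesets were, and the median difference was 4.18. The coreceptor chain CD8A reached 12.45 in thymus and 7.93 in testis, and PTCRA, which pairs with the beta chain of the early T cell receptor, reached 10.47 in thymus and 7.14 in pancreas. CD1E, at 11.96 in thymus and 12.12 in testis by the brightest of its 3 probesets, had no call. With any probeset of a gene counted, all 12 genes, CD1E among them, were higher in thymus. In the list of B and myeloid markers 4 of 8 were higher in thymus (10.9% of all probesets were), and the list ran from LYZ at 3.40 down to CD68 at -3.42. Of 8 genes of connective tissue and vessels only PECAM1 was higher in thymus, at 1.43, against the same 10.9%, while COL1A1 differed by -5.16.

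Of 12 genes of intestinal epithelium, another source of CCL25, none was higher in thymus and 8 were called for pancreas, for which 21.9% of all probesets were called. With any probeset of a gene counted, 1 of the 12 was higher in thymus. The lowest was LGALS4, at 5.58 in thymus and 8.51 in pancreas, and the highest CDH17 at -0.16. Of 4 genes of parathyroid and thyroid, which lie beside the thymus, none was higher in thymus (1 with any probeset counted), with GCM2 at -0.21 and PTH at -0.59. Of 8 germ cell genes none was higher in thymus, 5 were called for testis (5.99% of all probesets) and 3 for pancreas (21.9%). In testis the CCL25 transcript probeset and TBATA had their second highest signals. TKTL1, which resembles the enzyme transketolase, gave 5.95 in thymus and 11.63 in testis. PRM1, a protamine of late spermatids, gave 6.55 in thymus, 6.35 in testis and 6.99 in pancreas, for which it was called. ACR and ODF1 were called for pancreas too, at 5.69 and 6.27 in testis and 6.62 and 7.18 in pancreas. The part of germ cells in these second places was not tested.

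The genes with patterns most like those of the members were taken by Pearson correlation over the 30 arrays after subtraction of center means, a description in which the points share 5 RNAs. TBATA was followed most closely by LTB, CD8B, SLA, IL2RG and CD8A (r = 0.996 to 0.998), 5 genes of lymphocytes. The CCL25 transcript probeset was followed by CD1B, ARHGAP15, LY75, CXCR4 and PTPRC (r = 0.991 to 0.993). PAX1 probeset MmugDNA.645.1.S1_at was followed by ZNF101, CAMP, MS4A1, PILRA and PTCRA (r = 0.985 to 0.993). AIRE was followed by INSM1, CYSLTR1, BLNK, CLEC1A and GALT (r = 0.938 to 0.951), of which BLNK, an adaptor of B cell receptor signaling, stood 0.87 above the highest other tissue in thymus. By Spearman correlation at most 2 of the 5 closest genes of any probeset were shared with this choice.

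The discordant probesets resembled other genes. PAX1 probeset MmugDNA.42046.1.S1_at was followed by BCL6B, ORAI2, SLC22A12, KLK12 and ACR (r = 0.953 to 0.962), whose differences of thymus from the highest other tissue ran from -0.98 to -0.65. The 3 CCL25 probesets of genomic origin had TNC, the matrix protein tenascin C, among their 5 closest in each case (r = 0.970 to 0.983), and TNC differed by -3.23 between thymus and the highest other tissue. TP53I3, ATP5MJ, LOC705016 and POP4 completed the set of MmugDNA.33849.1.S1_s_at. MRPL20, LASP1, LOC718596 and PALM2AKAP2 completed that of MmugDNA.28982.1.S1_s_at, and ATP5MJ, ATL3, LOC707587 and PALM2AKAP2 that of MmugDNA.33849.1.S1_at. Among the thymus-high members, TBATA correlated with the CCL25 transcript probeset at 0.974, with PAX1 probeset MmugDNA.645.1.S1_at at 0.964 and with AIRE at 0.792.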

How the data were processed

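The deposited values are log2 probeset signals that the authors made from 30 arrays. They corrected background with MAS 5.0, quantile normalized the 10 arrays of each center separately and summarized all arrays together by RMA. None of these steps was repeated. Since levels differ between centers for this reason, center was a term of the model. All 52865 probesets were fitted with limma 3.58.1 in R 4.3.3 (lmFit and eBayes, terms tissue and center), and p-values were adjusted by the Benjamini-Hochberg method over all probesets. No detection calls were used, so the percentile of a signal within its array stands in for brightness, and the number of arrays limits the precision. Gene symbols come from the platform annotation of 25330 probesets, of which 361 carried several symbols and were not named. Probesets without a listed symbol, 27535 in number, were fitted but not named.

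The members, gene lists and named genes were chosen with earlier results of these data known. Named were all member probesets, a set of list genes (PSMB11, FOXN1, PRSS16, PAX9, KRT5, KRT8, KRT14, CCR9, CCR7, ACKR4, CD8A, PTCRA), the highest and lowest gene of each list, and the 5 genes most like each probeset. The remaining list genes, the second LY75 probeset and the genes beside the members were named after their values were seen. The procedure was also run on simulated data whose arrays had independent noise. That run cannot show how the calls fare when aliquots of a pair resemble each other. Sequences were not used here.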

Additional observations from a re-analysis of the deposited data

Results flagged for a closer look

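For 4 probesets the differences between tissues depended on the center, by the limma F test of the interaction of tissue and center over all probesets. For PAX1 probeset MmugDNA.645.1.S1_at (adjusted p = 0.000369, limma) thymus exceeded testis by 3.64 at Oregon, 2.92 at Nebraska and 2.58 at Yerkes, and exceeded each other tissue most at Oregon too. For the CCL25 probeset with a listed transcript (adjusted p = 0.00408, limma) the difference of thymus from fibroblast was 3.67, 4.30 and 3.95 at these centers. For CCL25 probesets MmugDNA.33849.1.S1_s_at (adjusted p = 0.0187, limma) and MmugDNA.28982.1.S1_s_at (adjusted p = 0.0278, limma) thymus lay below fibroblast by differences of -0.76 and -0.43 at Oregon and of -1.13 and -1.09 at Yerkes. None of the 40 groups of 6 arrays, 1 for each probeset and tissue, held an array that stood apart from the others by Dixon's criterion.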

How the results depend on the processing

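Of the 8 differences of thymus from the highest other tissue, none changed sign under any alternative. AIRE lost its call after quantile normalization of all arrays (0.0821), without a center term (0.19, adjusted p = 1, limma), with aliquot pairs as a random block (0.19) and at Oregon, Nebraska and Yerkes alone (0.22, 0.27 and 0.0889). Without the pancreas arrays, the closest tissue, AIRE kept its call (0.42 over cerebral cortex, the same difference as with them). PAX1 probeset MmugDNA.42046.1.S1_at lost its call for another tissue without a center term (-0.74), without the pancreas arrays (-0.27) and at Nebraska alone (-0.71). Both PAX1 probesets fell below the median of mean signal and so had no value when only probesets above it were kept. The share of all probesets higher in thymus was 5.7% without a center term and 6.85% at Yerkes alone. The interaction of CCL25 probeset MmugDNA.33849.1.S1_at passed after quantile normalization (adjusted p = 0.0445, limma), where AIRE partners higher in thymus numbered 3. Counting any probeset, 1 gene each of the intestinal and the parathyroid and thyroid lists was higher in thymus. Quantile normalization of all arrays moved the median probeset by 0.223 at Oregon, 0.195 at Nebraska and -0.396 at Yerkes.

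Leaving out each of the 30 arrays gave 0.16 to 0.22 for AIRE, which lost its call in 5 of these fits, without pancreas replicate 1 at Oregon (0.18), thymus replicate 2 at Oregon (0.16), pancreas replicates 1 and 2 at Nebraska (0.18 each) and thymus replicate 1 at Nebraska (0.18). The other 7 probesets kept their calls, at 2.46 to 2.67 and -0.78 to -0.71 for PAX1, 4.41 to 4.49 for TBATA, and -1.02 to -0.95, -0.78 to -0.67, -0.96 to -0.89 and 2.53 to 2.64 for CCL25. With the replicate number within each center as a replicate block the AIRE difference was 0.19 and no call changed. Differences between aliquots correlated between tissues of a center at -0.304 to 0.35 (30 pairs). Both extremes were at Yerkes, while values ran from -0.0591 to 0.0222 at Oregon and from -0.0553 to 0.0935 at Nebraska. The numbers thus showed little pairing of the arrays at Oregon and Nebraska, and the origin of the larger values at Yerkes was not tested.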

Other observations

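Neighboring genes of the members were looked at after the values were seen. In RefSeq's order of genes, ELAVL1, an RNA-binding protein of most cells, lies beside CCL25. Its probeset was at 9.25 in thymus, 8.69 in testis, 9.01 in pancreas, 7.37 in fibroblast and 7.55 in cerebral cortex, so fibroblast, where 3 CCL25 probesets were highest, was its lowest tissue. FOXA2, a factor of endoderm derivatives beside PAX1, was at 5.98 in thymus and 8.47 in pancreas, where PAX1 probeset MmugDNA.42046.1.S1_at was highest. PFKL, a glycolytic enzyme beside AIRE, was at 8.35 in thymus and 9.03 in fibroblast, where AIRE was lowest. DNMT3L, on the other side of AIRE, was at 5.44 in thymus and 7.02 in pancreas. ADAMTS14, beside TBATA, was at 6.51 in thymus and 7.15 in pancreas. SGPL1, on the other side of TBATA, had 5 probesets. All but MmugDNA.3560.1.S1_at had their highest mean in thymus, as TBATA did, by 0.03 to 0.61 over the highest other tissue. MmugDNA.3560.1.S1_at was highest in testis, with a thymus difference of -0.37. Sequences of the probes were not analysed here.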
